A study of Mus musculus with 79 samples.

Results

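Broad H3K4me3 domains without H3K27me3 were described in the hypothalamus of mice aged 14 weeks. A domain was a run of 5 or more consecutive tiles, each of 2000 bp and moved by 1000 bp, in which the mean H3K4me3 of the 3 +/+ animals was 10 RPM or more in every tile and the mean H3K27me3 over the run was under 1 RPM. RPM is the reads of a tile scaled to the mapped reads of its library. The rule gave 811 domains on the autosomes, out of 13206 runs of any length at the same H3K4me3 limit. A further 199 broad runs carried H3K27me3 at 1 RPM or more, 10084 were narrow (1 to 4 tiles) and without H3K27me3, and 2112 were narrow and with it. A gene was assigned to a domain when its start lay inside, which gave 928 gene entries, 3.79% of the 24483 autosomal entries. The domains were selected on the +/+ H3K4me3 and H3K27me3 values, which are given as a description with no test.

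The +/+ mice were wild type for Dnmt3a, a DNA methyltransferase gene. The Δ/D329A mice carried 1 allele with exon 18 deleted (Δ), made with a Cre that is active in oocytes, and 1 allele with the point mutation D329A in the PWWP domain, which reads H3K36 methylation. The D329A allele was made in embryonic stem cells of C57BL/6, and both alleles were present in every cell of the animal rather than in chosen cell types. Each library came from 1 mouse, with 3 mice of each genotype for H3K4me3, H3K27me3, H3K36me3 and input, and 5 +/+ and 4 Δ/D329A mice for RNA. The paper gives the histone mark libraries as male. It gives the RNA libraries as female in 1 caption and as male in another. RNA and marks set side by side here may therefore come from animals of different sex. The hypothalamus was used whole, so that its cell types are mixed, and fewer cells of a type and less RNA per cell cannot be told apart. Among the 12 measured neuronal markers the median +/+ RNA was 5.15 log2 RPKM (reads scaled to gene length and library size), against −4.54 for the 6 liver and muscle markers and −1.65 for the 4 pituitary markers. Mapped reads ranged from 12676361 to 15944966 per H3K4me3 library and from 14874942 to 26178088 per H3K27me3 library. They ranged from 19056381 to 22850001 per H3K36me3 library and from 14708935 to 30207875 per input library, and RNA reads on nuclear genes from 3834484 to 9721895.

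H3K4me3 is laid down at active and poised gene starts by the SET1 and MLL families of methyltransferases, whose CXXC partners bind unmethylated CpG. At most starts the mark covers a few nucleosomes, and a minority of genes carry it far into the gene body. Such broad domains are known for genes of cell identity, and in many of them Polycomb sets H3K27me3 beside H3K4me3, which defines the bivalent state left out here.

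The starts assigned to the widest domains were of very different base composition. The 300 bases from 250 before to 50 after the start (RefSeq, GRCm38.p6) are printed for 4 of the 10 widest domains and for Gabra2, the 1 domain gene whose RNA was called by limma. They run 5′ to 3′ along the gene, with every CG in capitals. Qk (quaking, an RNA-binding protein of oligodendrocytes and astrocytes) held 57 CG in chr17:10319312-10319611, minus strand. Dlg4 (PSD-95, the scaffold of excitatory synapses) held 5 in chr11:70016953-70017252, plus strand. Pcdh10 (a protocadherin, a cell adhesion protein) held 24 in chr3:45378148-45378447, plus strand. Irs1 (an adaptor of the insulin receptor) held 28 in chr1:82291390-82291689, minus strand. Gabra2 (the alpha 2 subunit of the GABA-A receptor) held 25 in chr5:71095800-71096099, minus strand.
Qk: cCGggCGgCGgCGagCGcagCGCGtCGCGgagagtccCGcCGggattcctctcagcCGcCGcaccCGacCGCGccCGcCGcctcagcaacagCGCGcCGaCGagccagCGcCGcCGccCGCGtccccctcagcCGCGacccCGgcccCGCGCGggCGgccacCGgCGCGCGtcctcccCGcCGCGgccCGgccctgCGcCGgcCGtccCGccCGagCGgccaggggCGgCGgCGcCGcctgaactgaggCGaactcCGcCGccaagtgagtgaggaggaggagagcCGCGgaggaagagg
Dlg4: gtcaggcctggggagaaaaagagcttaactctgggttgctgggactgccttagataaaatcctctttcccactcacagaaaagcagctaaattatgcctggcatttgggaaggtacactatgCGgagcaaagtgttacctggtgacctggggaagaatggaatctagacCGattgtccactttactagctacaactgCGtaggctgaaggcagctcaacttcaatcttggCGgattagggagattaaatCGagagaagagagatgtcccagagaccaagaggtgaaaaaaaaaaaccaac
Pcdh10: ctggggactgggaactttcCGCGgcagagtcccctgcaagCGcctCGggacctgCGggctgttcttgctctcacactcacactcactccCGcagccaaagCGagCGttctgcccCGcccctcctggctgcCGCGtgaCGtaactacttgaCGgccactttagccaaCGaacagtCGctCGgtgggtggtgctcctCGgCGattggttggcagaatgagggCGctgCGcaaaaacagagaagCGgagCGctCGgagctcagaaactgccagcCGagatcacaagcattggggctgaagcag
Irs1: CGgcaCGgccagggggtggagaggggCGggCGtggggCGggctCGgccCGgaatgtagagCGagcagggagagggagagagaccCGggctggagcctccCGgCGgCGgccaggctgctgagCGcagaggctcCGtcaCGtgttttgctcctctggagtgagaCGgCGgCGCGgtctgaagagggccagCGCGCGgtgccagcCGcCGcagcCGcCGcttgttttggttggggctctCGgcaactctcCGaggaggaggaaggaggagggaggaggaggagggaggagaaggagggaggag
Gabra2: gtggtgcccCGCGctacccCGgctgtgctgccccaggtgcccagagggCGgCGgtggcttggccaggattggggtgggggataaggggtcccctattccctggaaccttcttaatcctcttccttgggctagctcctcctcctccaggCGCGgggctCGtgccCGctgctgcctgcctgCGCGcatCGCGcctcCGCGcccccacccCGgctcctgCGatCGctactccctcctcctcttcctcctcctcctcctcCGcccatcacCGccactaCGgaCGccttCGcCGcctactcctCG
Of 927 domain gene symbols, 538 had a RefSeq promoter within 500 bp of the start in the RNA table, with a median of 26 CG (quartiles 16 and 35). The median was 23 in the 6315 promoters of narrow runs without H3K27me3 and 15 in all 13682 promoters matched. The box TATAAA, searched on both strands, was in 5.20% of the domain promoters and 13.2% of all, and GGGCGG in 73.0% and 48.3%. CCAAT was in 39.8% and 38.6%. A match of these letters is a description of the window and no measured binding.

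Over the whole domain the CpG density had a median of 31.5 per kb, against 29.3 (narrow runs) and 7.33 over 399026 windows of 6 kb on the autosomes. The Dlg4 domain ran over chr11:70017001-70031000. The start assigned to it, at chr11:70017085, lay in a CG-poor window at the edge of the domain. Other starts inside that domain were not examined, so this window does not describe the rest of it. The widest domains in which no gene of the RNA table started had 9 tiles at Sybu (chr15:44745001-44755000) and 8 tiles each at Lrrc4c (chr2:97465001-97474000), Gnas (chr2:174326001-174335000) and Gse1, among others, each with a protein-coding start in GENCODE. Sybu had 13.7 CpG per kb, Lrrc4c 12 and Gnas, the imprinted gene of the G protein alpha subunit, 49.0.

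Several domains held microRNA genes. Of 919 autosomal hairpins in RefSeq, 25 lay inside 20 of the 811 domains (3.08 hairpins per 100 domains) 89 inside 85 narrow runs (0.883 per 100 runs) and 13 inside 9 broad runs with H3K27me3 (6.53 per 100 runs). Domains are longer than narrow runs, and the counts were not scaled to length. Mature sequences are printed, with bases 2 to 8 (the seed, which pairs with targets) in capitals, for 9 hairpins chosen after the list was seen because several share a seed. Mirlet7i lay in a domain with no gene start of the table (chr10:122982001-122988000, 23.9 RPM), and Mirlet7e and Mir125a shared the domain of Ncrna00085 (chr17:17825001-17831000, 38.2 RPM). Mir125b-1 lay in the domain of 2610203C20Rik (chr9:41578001-41589000, 33.3 RPM). Mir132 and Mir212, which neuronal activity induces, lay in the domain assigned to Hic1 and 1700016P03Rik (chr11:75168001-75175000, 17.3 RPM). Mir191 and Mir425 lay in that of Ndufaf3 and Dalrd3 (chr9:108565001-108572000, 22.8 RPM), and Mir219a-1, known from oligodendrocytes, in that of Ring1 (chr17:34023001-34029000, 19.5 RPM).
let-7i-5p: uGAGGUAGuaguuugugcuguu
let-7e-5p: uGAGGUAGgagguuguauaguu
miR-125a-5p: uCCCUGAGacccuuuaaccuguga
miR-125b-5p: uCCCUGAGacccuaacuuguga
miR-132-3p: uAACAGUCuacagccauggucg
miR-212-3p: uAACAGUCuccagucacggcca
miR-191-5p: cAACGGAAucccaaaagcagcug
miR-425-5p: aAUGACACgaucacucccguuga
miR-219a-5p: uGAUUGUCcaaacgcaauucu
The pairs let-7i and let-7e, miR-125a and miR-125b, and miR-132 and miR-212 each had the same seed. Other brain hairpins, Mir9-1, Mir9-2 and Mir9-3, lay in broad runs that the rule left out, with H3K27me3 between 1.39 and 2.32 RPM. Transfer RNA genes were also found in the domains, with 47 of the 386 autosomal ones in RefSeq lying inside 13 domains. Narrow runs without H3K27me3 held 131 in 91 runs. Narrow runs with H3K27me3 held 17, broad runs with it 0, and 191 lay inside no run. These counts were not scaled to length or to the number of runs. A domain on chromosome 13 (chr13:21166001-21174000) held 7 and had 24.6, 21.3 and 24.8 RPM of H3K4me3 in the +/+ animals. A domain on chromosome 11 (chr11:69035001-69043000) also held 7 and had 18.5, 15.8 and 20.1 RPM.

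Of the 811 domains, 481 had 5 tiles (6 kb), 181 had 6, 81 had 7 and 68 had 8 or more, and together they covered 5.48 Mb. The widest had 13 tiles (14 kb) and were those of Tnrc18, Bahcc1, Qk and Dlg4. Those of Pcdh7, Pcdh10, Pcdh17, Irs1, Kcna6 (a potassium channel) and Gm11465 followed with 11 tiles. Width and height were separate. The mean H3K4me3 was 38.2 RPM over the Tnrc18 domain and 20.5 RPM over that of Dlg4, of the same length. The highest mean of any domain was 44.6 RPM at Malat1, a nuclear noncoding RNA, over 9 tiles. In the +/+ animals the coefficient of variation of a domain's H3K4me3 had a median of 6.72% and a largest value of 18.7%. The domains just inside the H3K27me3 limit were those of Fat4 (0.973 RPM), Rorb (0.994) and a part of Kcnma1 (0.997), and those just outside were St8sia4 (1.01), Sox11 (1.01) and Gabbr2 (1.02). The runs of Sp3, Efnb3 and Sqstm1 stopped at 4 tiles with a neighbouring tile at 9.96, 9.96 and 9.98 RPM. The domains of Hsp90ab1 and Csmd2 and one inside Pde4b reached 5 tiles with an end tile at 10.01, 10.02 and 10.01 RPM.

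Of the domains, 705 held a gene start, 504 of them a single one. In these 504 domains H3K4me3 reached a median of 1.92 kb before the start and 4.40 kb past it, and 472 (93.7%) extended further into the gene than before it. The narrow runs with 1 start reached 1.48 kb before it and 2.22 kb past it, and 87.0% of them extended further into the gene. Their shorter reach follows from the rule. The 135 broad runs with H3K27me3 and 1 start were close to the domains. They reached 1.98 kb before the start and 4.57 kb past it, and 91.9% extended further into the gene. In the domains the median H3K4me3 was 36.1 RPM at the start, 42.2 RPM at 1 kb and 17.5 RPM at 3 kb past it. In narrow runs it was 26.6, 23.8 and 0.954 RPM at the same places. The genes of the single-start domains had a median length of 49.8 kb, and 36 of them lay wholly inside the domain. The median was 24.9 kb for narrow runs and 56.6 kb for broad runs with H3K27me3. Among all 928 entries, 101 (10.9%) were 200 kb or longer, against 3.73% of all autosomal entries. The share was 3.90% in narrow runs without H3K27me3, and it was higher than in the domains in broad runs with H3K27me3 (21.3%) and narrow runs with it (12.98%). Of the 106 domains without a start in the RNA table, 85 held a protein-coding start in GENCODE, such as Nrxn2 and Gse1, and 7 held only a noncoding one, such as Peg13. The other 14 held none.

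**Figure D1:**
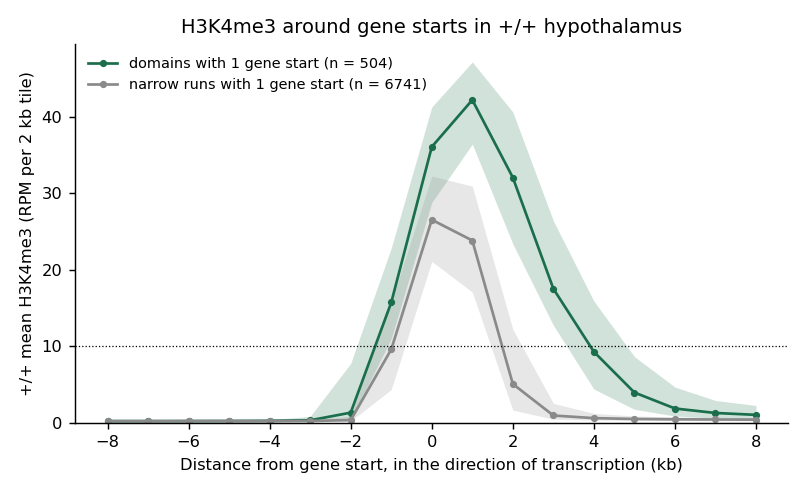
Median +/+ H3K4me3 in RPM per 2 kb tile (lines) with quartiles (bands) against the distance from the gene start in kb, for 504 domains with 1 gene start and 6741 narrow runs with 1 gene start. The dotted line is the limit of 10 RPM. The median of the domains was 42.2 RPM at 1 kb past the start and 17.5 RPM at 3 kb, where narrow runs were at 0.954 RPM.

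Genes that start in a domain were transcribed at high levels in +/+ animals. Their median RNA was 2.49 log2 RPKM (quartiles 1.35 and 3.56), against 1.86 for genes of narrow runs, 1.60 for broad runs with H3K27me3 and 0.39 for narrow runs with it. Genes that start in no run were at −3.98. The 5 +/+ library medians of the domain genes lay between 2.23 and 2.85 and those of narrow runs between 1.51 and 2.27. In each of the 9 libraries the domain genes were higher than the genes of narrow runs. Of the 928 entries, 819 (88.3%) were at 1 RPKM or more, and 7.47% of all 10964 autosomal entries at that level started in a domain. In all, 6 entries had no read in any +/+ library.

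The domain genes with the highest +/+ RNA were Malat1 (9.25 ± 0.18 log2 RPKM, SD, n = 5), Hspa8 (8.06 ± 0.51), Ckb (7.997 ± 0.67), Calm2 (7.76 ± 0.34) and Hsp90ab1 (7.71 ± 0.45). Hspa8 and Hsp90ab1 encode chaperones, Ckb the brain creatine kinase and Calm2 a calmodulin. The lowest were Gm10463, Gm16170 and 4921522P10Rik, which held between 0 and 4 reads in any library and share their domains with other genes or with transfer RNA genes. Among the genes of the widest domains, Qk was at 5.10 ± 0.21 (SD, n = 5) and Dlg4 at 4.69 ± 0.31. Pcdh17 was at 3.97 ± 0.28, Pcdh7 at 3.78 ± 0.37, Pcdh10 at 3.71 ± 0.28 and Kcna6 at 3.37 ± 0.29. Irs1 (1.61 ± 0.34), Tnrc18 (1.73 ± 0.35) and Bahcc1 (0.12 ± 0.39) were lower, and Gm11465 and Gm11772 had at most 1 read in any library, so that the widest domains did not hold the most abundant RNAs. Over the 504 single-start domains Spearman's rho with +/+ RNA was 0.050 for the number of tiles and 0.036 for the mean H3K4me3, as a description across genes, which are not independent. Genes of domains of 5 tiles had a median RNA of 2.36, those of 8 or more tiles 2.63, and genes of narrow runs of 4 tiles 2.54, 3 tiles 2.01 and 2 tiles 1.26.

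**Figure D2:**
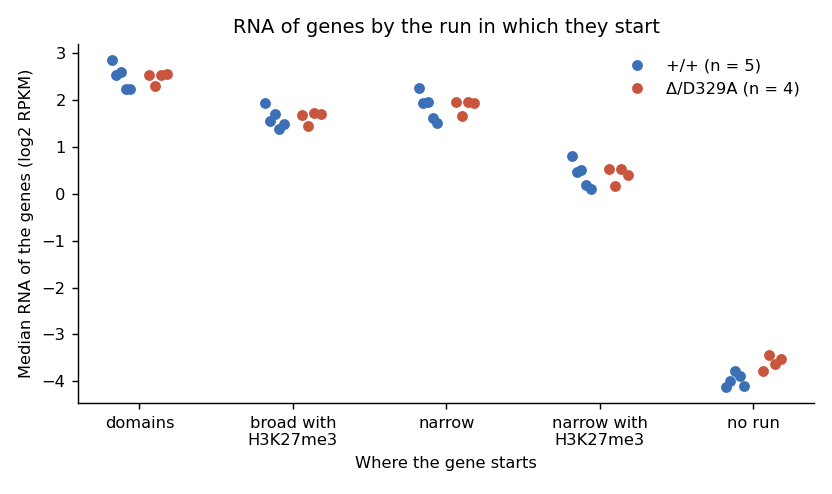
Median RNA in log2 RPKM of the genes that start in each kind of run, as 1 point per library (5 +/+, 4 Δ/D329A). The +/+ medians of the domain genes lay between 2.23 and 2.85 and the Δ/D329A medians between 2.31 and 2.56.

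Lists of known genes were set against the 3.79% of autosomal entries that start in a domain. Among entries at 1 RPKM or more in +/+ the share was 7.47%, a nearer base for lists of well transcribed genes. Of 31 measured synaptic and channel genes, 7 (22.6%) started in one, with a median +/+ RNA of 4.65 log2 RPKM against 3.41 for the whole list. They included Dlg4 (13 tiles), Gria2 (7), Nlgn2 (6) and, with 5 tiles each, Gria1, Syn2 and Camk2a, which encode glutamate receptor subunits, adhesion and vesicle proteins and a kinase. Nrxn2, Cacna1a and Cacna1c had a GENCODE start in a domain without a start in the table. Of 21 immediate early genes, which neuronal activity induces within minutes, 5 (23.8%) started in a domain: Nr4a3 (7 tiles), Jun (6), Fosl2, Egr1 and Junb (5 each). Of 17 Polycomb components 4 did, among them Pcgf2, Ring1 and Jarid2, and of 12 genes of H3K4 methylation 1 did, Setd1b (10 tiles). Tet3 was the 1 of 10 genes of DNA methylation. Broad runs with H3K27me3, in which 202 of the 24483 autosomal entries started, also held members of these lists. They held 5 of the 31 synaptic and channel genes, 2 of the 21 immediate early genes and 0 of the 17 Polycomb components. The first 2 lists were thus not particular to the domains.

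None of the 24 hypothalamic transcription factors measured started in a domain, and 11 of them started in runs with H3K27me3 of 1 RPM or more (5 broad, 6 narrow). Of the 82 ribosomal protein genes, which are among the most transcribed of all, 3 (3.66%) started in a domain (Rpl35, Rpl18 and Rpl7) and 75 in narrow runs without H3K27me3. Over the 10 cell type lists, 2 of 60 markers started in a domain, Snap25 of neurons and Cnp of oligodendrocytes. Broad runs with H3K27me3, which the rule left out, held more of them. These were 6 of the 12 neuronal markers, 3 of the 8 of astrocytes and 1 of the 8 of oligodendrocytes. Of the noncoding hosts, Malat1 (9 tiles), Snhg11 (7) and Neat1 (7) started in a domain, and of the growth and feeding genes Igf1r (6).

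The H3K4me3 library of Δ/D329A animal 1 stood apart. Its median tile of the genome was at 0.314 RPM, against 0.0789 to 0.200 RPM in the other 5 libraries, and its median over the domains was 19.9 RPM. The +/+ libraries were at 28.1, 26.5 and 29.98 RPM over the domains and Δ/D329A animals 2 and 3 at 31.4 and 27.5. So the 2 other Δ/D329A libraries lay on both sides of the +/+ animals in their medians. Mitochondrial tiles also differed between the libraries, with means of 14.8 to 19.2 RPM in +/+ animals 1 and 2 and Δ/D329A animal 1, and of 29.5 to 44.6 RPM in the other 3. The part of either in the results was not tested.

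Over the domains the log2 ratio of the Δ/D329A to the +/+ mean of H3K4me3 had a median of −0.10 (5% and 95% points −0.25 and −0.00), against −0.07 in narrow runs, and 776 of 811 domains were lower. Without Δ/D329A animal 1 the median was 0.06 (narrow runs 0.08) and 161 domains were lower, so that the sign of the median rested on that library. Within the libraries of lower mitochondrial coverage (2 +/+ and Δ/D329A animal 1 alone) it was −0.44. Within those of higher coverage (1 +/+ and 2 Δ/D329A) it was −0.02. The domains were chosen for high +/+ values, which by itself favours lower values in other libraries. By the same rule in the Δ/D329A means there were 657 domains. These overlapped 637 of the 811 (78.5%), and 636 of the 657 (96.8%) overlapped one of the 811. The Δ/D329A means include animal 1, whose library alone had 47.0% of the 811 domains at 5 or more tiles. The shares were 94.3% and 85.2% in animals 2 and 3. A count of domains without animal 1 was not made.

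**Figure D3:**
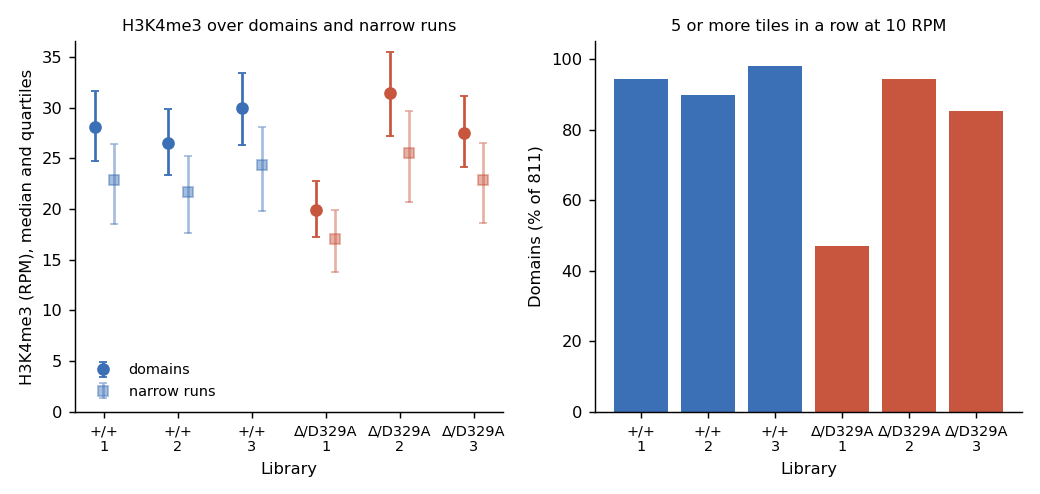
Left, H3K4me3 in RPM over the 811 domains (circles) and narrow runs (squares) in each library, as medians with quartiles, and right, the share of the 811 domains with 5 or more tiles in a row at 10 RPM or more in that library alone. Δ/D329A animal 1 had 47.0% of the domains at that length and the other 5 libraries between 85.2% and 98.2%.

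Of the 693 domains with 5 or more tiles in a row at 10 RPM in each +/+ library, 375 had 5 or more in all 3 Δ/D329A libraries and 623 in animals 2 and 3. Fewer than 5 in all 3 Δ/D329A libraries were found in 8. The reverse, 5 or more in each Δ/D329A library and fewer in each +/+ library, was found in 0 of the 811, which the rule favours since it asked for 5 tiles in the +/+ mean. These 8 were the domains of Mn1, Rgmb, Dzip1, Plk2, Tsc22d1, Klhl2, Gabarapl1 and one at Lrrc4b (chr7:44441001-44447000), a start that only GENCODE gave. Those of Klhl2, Gabarapl1 and Lrrc4b went only from 5 tiles in each +/+ library to 4 in each Δ/D329A library. Their mean H3K4me3 overlapped between the genotypes, as did that of Tsc22d1. The same count of 8 domains with fewer than 5 tiles was found when Δ/D329A animal 1 was left out. In 15 domains (1.85%) the 3 Δ/D329A values of H3K4me3 lay below all 3 +/+ values, against 4.14% of all runs. They lay above them in 0 domains, against 0.0606% of all runs. In narrow runs without H3K27me3 the shares were 1.62% below and 0.00992% above. Without Δ/D329A animal 1, 15 domains (1.85%, against 4.2% of all runs) were lower and 53 (6.54%, against 11.4%) were higher in this way. In narrow runs without H3K27me3 these shares were 1.63% and 13%.

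The Mn1 domain (chr5:111415001-111424000) had the lowest ratio of all. Mn1 encodes a transcriptional coactivator. Its H3K4me3 was 16.8, 16.9 and 16.7 RPM in the +/+ animals and 8.98, 9.999 and 11.6 RPM in the Δ/D329A animals, a log2 ratio of −0.72. The 8 tiles in a row at 10 RPM of each +/+ library were 2, 3 and 3 in the Δ/D329A libraries. H3K4me3 was lower on both sides of the start. The tile centred 0.362 kb before it was at 27.005, 26.7 and 26.8 RPM in +/+ and at 19.6, 23.7 and 24.1 RPM in Δ/D329A. The tile centred 3.64 kb past the start was at 10.7, 11.6 and 11.2 RPM in +/+ and at 2.82, 2.29 and 5.29 RPM in Δ/D329A. At 0.638 kb past the start it was at 29.1, 30.4 and 29.95 against 20.4, 23.7 and 23.1 RPM. H3K27me3 over the domain was 0.873, 0.856 and 0.936 RPM in +/+ and 1.22, 1.36 and 1.29 RPM in Δ/D329A, above the +/+ range in each animal. The RNA of Mn1 had a mean of 0.80 (SD 0.42, 5 animals) in +/+ and 0.21 (SD 0.24, 4 animals) in Δ/D329A on the log2 RPKM scale, a difference of −0.59 (limma adjusted p = 0.355). DESeq2 on the recovered reads called it (adjusted p = 0.00192).

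At Rgmb (chr17:15823001-15832000), which encodes a co-receptor of bone morphogenetic proteins, H3K4me3 was lower both before and past the start, and overlapped in the tile just past it. The tile centred 3.41 kb upstream had 28.0, 24.5 and 24.1 RPM in +/+ and 11.98, 17.04 and 19.5 RPM in Δ/D329A. At 0.586 kb past the start the values were 40.8, 41.0 and 42.8 against 28.0, 42.4 and 37.6 RPM and overlapped. At 1.59 kb past it they were 34.1, 33.0 and 32.1 against 18.8, 30.5 and 27.9 RPM, without overlap. H3K27me3 over the domain was 0.889, 0.856 and 1.01 RPM in +/+ and 1.78, 1.92 and 1.65 RPM in Δ/D329A. These means cover an uneven domain, whose upstream part held the mark in +/+ as well. In the tile 3.41 kb upstream H3K27me3 was 1.57, 1.98 and 2.28 RPM in +/+ and 3.70, 3.78 and 3.15 RPM in Δ/D329A. At 0.586 kb past the start it was 0.252, 0.060 and 0.050 against 0.605, 0.535 and 0.355 RPM. Rgmb RNA was 2.95 ± 0.27 (n = 5) and 2.69 ± 0.15 log2 RPKM (n = 4), which did not pass the limma test (adjusted p = 0.499).

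The Car2 domain (chr3:14885001-14893000) had the third lowest ratio of H3K4me3 (−0.52). Car2 is the carbonic anhydrase of oligodendrocytes. Its H3K4me3 was 26.0, 25.9 and 24.7 RPM in +/+ and 12.99, 23.9 and 16.6 RPM in Δ/D329A, so that animal 2 was close to the +/+ range. The second lowest ratio was in a domain inside Dclk1 (−0.58). High ratios were those of Id4 (0.11) and Plxdc1 (0.06), and neither of these had groups without overlap.

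H3K27me3 over the domains had a median of 0.165 RPM in +/+ and 0.161 RPM in Δ/D329A, both under the median tile of the genome, which was at 0.538 to 0.573 RPM in the 6 libraries. The Δ/D329A mean was at 1 RPM or more in 33 of 811 domains (4.07%), 21 of which were already at 0.75 RPM or more in +/+. The rule left no domain at 1 RPM or more in the +/+ mean, so that a crossing of the limit could only be seen in Δ/D329A. The largest was 1.78 RPM, at Rgmb. In 49 domains (6.04%) all 3 Δ/D329A values lay above the +/+ values, against 7.26% of all runs, and in 59 (7.27%) below them, against 8.34%. In narrow runs without H3K27me3 the shares were 5.21% above and 8.65% below. At Nrp2, a receptor of semaphorins, H3K27me3 was 0.745, 0.640 and 0.545 RPM in +/+ and 1.59, 1.55 and 1.46 RPM in Δ/D329A. At Zfp516 it was 0.417, 0.435 and 0.409 against 1.80, 1.13 and 1.23 RPM. The H3K4me3 domain of Nrp2 kept 6 tiles in every library, and its RNA was 2.24 ± 0.31 (n = 5) and 1.97 ± 0.20 log2 RPKM (n = 4, limma adjusted p = 0.550). Both genes were picked for their H3K27me3 after the values were seen.

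**Figure D4:**
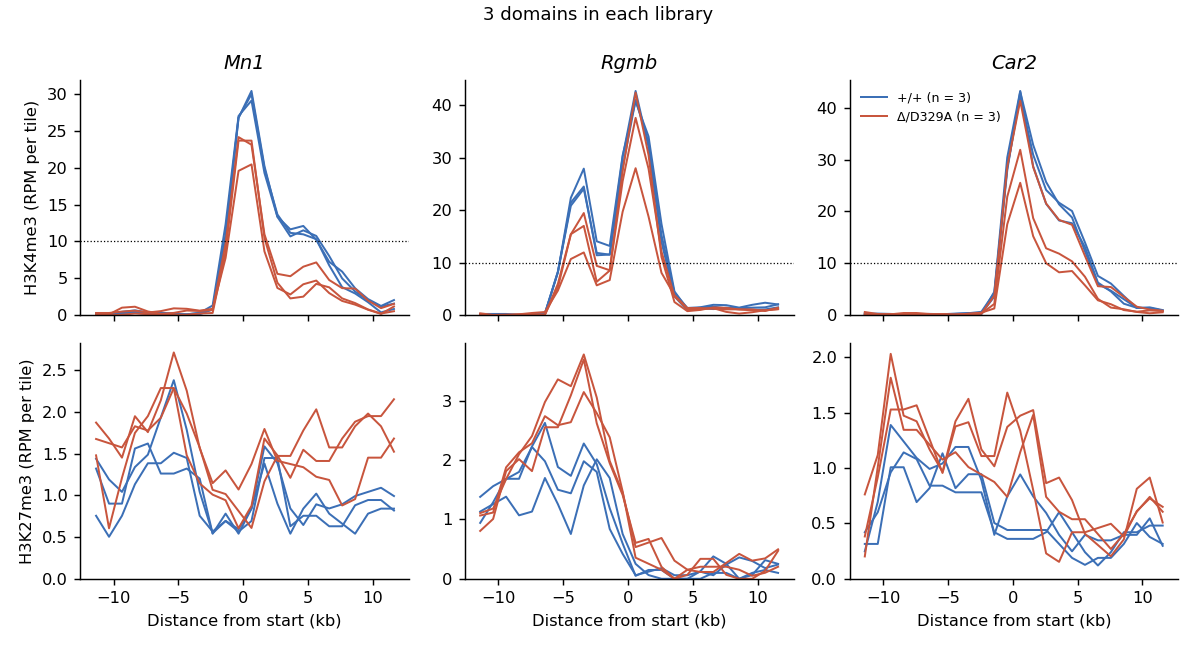
H3K4me3 (top) and H3K27me3 (bottom) in RPM per 2 kb tile against the distance from the gene start in kb, 1 line per library (3 +/+, 3 Δ/D329A), at Mn1, Rgmb and Car2. The dotted line is 10 RPM. In the tile 3.64 kb past the Mn1 start the +/+ lines were at 10.7 to 11.6 RPM and the Δ/D329A lines at 2.29 to 5.29.

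RNA of the domain genes was compared between the genotypes with limma over all 17839 nuclear genes at 0.1 RPKM or more in at least 4 libraries. Of the domain genes, 912 were tested and 1, Gabra2, passed the limit of 0.01 on the adjusted p. The share called was 0.107% of all genes tested. The median log2 difference was 0.05 in domain genes and 0.06 in all genes, and 367 domain genes (40.2%) were lower against 40.3% of all autosomal ones. In all, 6 domain genes (0.658%) differed by more than 1 on the log2 scale, against 2.81% of autosomal genes. In 20 (2.19%) the genotypes did not overlap, against 3% of all genes tested. An unadjusted p under 0.05 was found in 51 domain genes (5.59%), against 7.62% of all genes tested. Genes of narrow runs without H3K27me3 were nearer to the domain genes in RNA level. Their median difference was 0.02 and 46.6% were lower. Of them 0.749% differed by more than 1, 1.86% did not overlap and 4.22% had an unadjusted limma p under 0.05. In genes that start in no run, which were low in RNA, these 3 shares were 6.89%, 4.38% and 12.5%. By edgeR on the recovered reads 3 domain genes of 858 (0.35%) were called (Gabra2, Sqle and Gpr37), against 0.555% of all genes tested. By DESeq2 22 of 881 (2.5%) were called, against 1.61% of all genes tested. In the 10 cell type lists 0 of 53 markers tested were called by limma.

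Gabra2 (chr5:70961057-71095849) was at 3.70, 3.88, 3.81, 3.52 and 3.44 log2 RPKM in +/+ and at 2.46, 2.32, 2.50 and 2.40 in Δ/D329A. Every Δ/D329A value lay below every +/+ value. The difference was −1.25 (SE 0.13, adjusted p = 0.00176 by limma). The call was lost with the replicate block (adjusted p = 0.0128) and without +/+ animal 3 or Δ/D329A animal 1, 2 or 4 (adjusted p between 0.0112 and 0.0172), while the difference stayed between −1.31 and −1.11 over all alternatives run. The reads behind it numbered 426 to 572 in each +/+ animal and 126 to 193 in each Δ/D329A animal. Its domain had 6 tiles and its H3K27me3 of 0.966 RPM was close under the limit of the rule. H3K4me3 over it was 27.6, 21.1 and 26.3 RPM in +/+ and 15.4, 27.2 and 22.2 RPM in Δ/D329A, and H3K27me3 was 0.734, 1.36 and 0.802 against 0.605, 1.02 and 0.863 RPM. Both marks overlapped between the genotypes.

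The other domain genes with the smallest limma p did not pass the adjusted test. Sqle (squalene epoxidase of cholesterol synthesis) was at 3.38, 2.92, 3.07, 2.70 and 2.41 log2 RPKM in +/+ and at 2.28, 2.18, 2.16 and 2.23 in Δ/D329A, without overlap (difference −0.68, limma adjusted p = 0.308, edgeR adjusted p = 0.00175). Pvrl3 (nectin 3, an adhesion protein) differed by −0.57 (adjusted p = 0.304) and Erbb2ip by −0.53 (0.355), both without overlap. Egr1, a transcription factor of the immediate early genes, was at 1.89, 1.90, 2.22, 1.503 and 2.05 in +/+ and at 2.86, 2.51, 2.50 and 2.55 in Δ/D329A, above all +/+ values (difference 0.69, adjusted p = 0.234). Rims1, a protein of the presynaptic active zone, differed by 0.46, Maml3 by 0.58 and Klf13 by 0.46, each without overlap and at an adjusted p of 0.355. Prnd, the prion-like gene doppel, rested on 3 to 9 reads in the +/+ animals and 0 to 3 in the Δ/D329A animals, and C030047K22Rik on 0 or 1 and 0 to 5, which is too few for a firm value. Gpr37, a receptor of oligodendrocytes, had a mean of 3.24 (SD 0.38) in 5 +/+ animals and of 2.54 (SD 0.39) in 4 Δ/D329A animals (limma adjusted p = 0.355, edgeR adjusted p = 0.00785).

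The 22 genes called by DESeq2 alone or with others were 14 lower and 8 higher in Δ/D329A. Those lower included Insig1 (−0.48), Hmgcs1 (−0.43) and Scd2 (−0.30), which encode a sterol sensor partner, HMG-CoA synthase and a fatty acid desaturase, beside Mn1 and Pcdh10 (−0.35). Those higher included Lrrtm1 (0.77), a synaptic adhesion protein, Zfp423 (0.51) and Id4 (0.46). None of them but Gabra2 passed limma. In the lists, all 5 immediate early genes of the domains (median difference 0.27), all 7 synaptic and channel genes (−0.03) and all 4 Polycomb genes (0.20) were tested by limma and 0 were called. Over all members measured, the medians were 0.22 for the 21 immediate early genes, 0.14 for the 31 synaptic and channel genes and 0.04 for the 17 Polycomb genes.

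**Figure D5:**
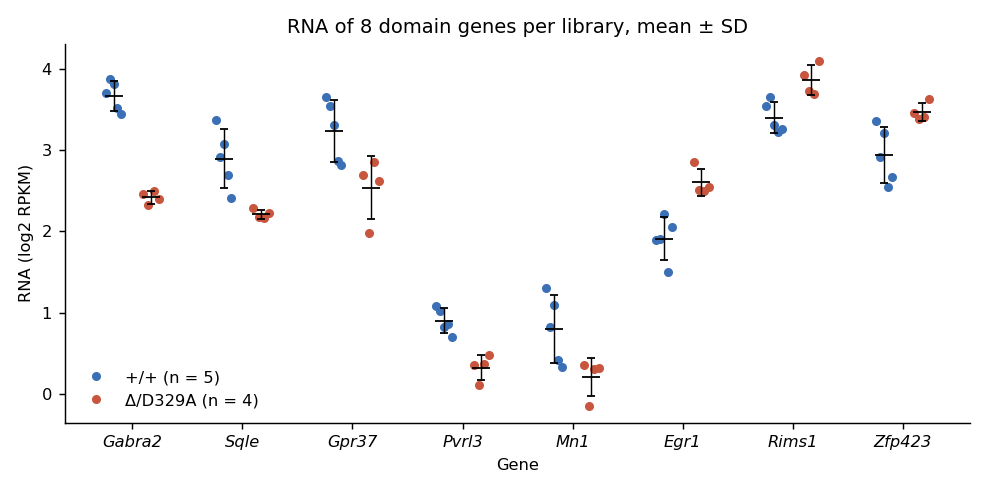
RNA in log2 RPKM of 8 domain genes in each library (points) with mean ± SD (bars), for 5 +/+ and 4 Δ/D329A animals. All 4 Δ/D329A values of Gabra2 (2.32 to 2.50) lay below the 5 +/+ values (3.44 to 3.88), and those of Mn1 and Gpr37 overlapped them.

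H3K36me3, the mark of transcribed gene bodies, was low over the domains themselves and higher past them. Its median over the domains was 0.403, 0.379 and 0.440 RPM in the +/+ libraries, against 0.263, 0.253 and 0.288 RPM in narrow runs. Over the bodies of the 839 domain genes with at least 3 tiles past 500 bp from the start it was 1.29, 1.30 and 1.34 RPM, and over those of narrow runs 1.53, 1.55 and 1.58 RPM. Domain gene bodies thus had less H3K36me3 than bodies of genes with narrow runs in each +/+ library, although their RNA was higher. The domains take up part of these bodies. By width, the median was 1.35 RPM in genes of 5 tiles and 1.18 RPM in genes of 8 or more. Over 489 single-start domain genes Spearman's rho of body H3K36me3 with +/+ RNA was 0.44, as a description across genes.

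In Δ/D329A the body medians of the domain genes were 1.23, 1.25 and 1.22 RPM, below each of the +/+ values. The median log2 difference was −0.08 and 657 of 839 bodies (78.3%) were lower, against −0.08 and 77.9% for narrow runs and −0.03 and 58.4% for all 20387 bodies. In 227 domain gene bodies (27.1%) all Δ/D329A values lay below all +/+ values, against 27.8% for narrow runs and 16.7% of all bodies, and in 9 (1.07%, against 6.81% of all bodies) above them. Limma called 0 of the 839 at an adjusted p under 0.05 (0% of all bodies), with a smallest adjusted p of 0.194. An unadjusted p under 0.05 was found in 183 (21.8%), against 23.3% for narrow runs and 17.6% of all bodies. In edgeR on the recovered reads 5 of 831 tested (0.602%) were called, all lower, against 0.71% of all bodies tested. In that test Arrdc3 fell from 2.28, 2.38 and 2.50 RPM to 1.63, 1.75 and 1.82 RPM (edgeR adjusted p = 0.0145). Car2 fell from 2.54, 2.63 and 1.85 RPM to 1.38, 1.80 and 1.37 RPM (0.0159), and Gria2 from 1.48, 1.415 and 1.32 RPM to 1.09, 1.18 and 1.08 RPM (0.0258). Picalm and Phip were the other calls (both 0.0466). The RNA of these 5 genes did not pass the limma test (adjusted p between 0.355 and 0.936).

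Over the domains themselves the H3K36me3 difference had a median of 0.03, against 0.10 for all 13206 runs. With the libraries centred on their medians it was −0.10 against −0.03, so that its sign rests on the scaling. All Δ/D329A values lay below all +/+ values in 34 domains (4.19%, against 2.85% of all runs) and above them in 54 (6.66%, against 8.08%). Limma called 0 of 811 (0.0227% of all runs), with 17 (2.1%) at an unadjusted p under 0.05 against 6.25% of all runs. EdgeR called 1 of 782 tested (0.128%), against 0.0445% of all runs tested. It was that of Car2 (2.08, 2.63 and 1.84 RPM against 1.14, 1.60 and 1.05 RPM, edgeR adjusted p = 0.0340). Input reads over the domains had library medians between 0.734 and 0.796 RPM. Limma and edgeR called 0 of 811 domains for input (0% of all runs), with 7 (0.863%) at an unadjusted limma p under 0.05 against 4.99% of all runs, and 36 (4.44%) by edgeR against 4.63%.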

How the data were processed

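Per the labels and the study's methods, chromatin was digested with MNase and precipitated without crosslinking from a small part of each hypothalamus, and RNA libraries were depleted of ribosomal RNA. The submitters' processing notes name GRCm38, Trim Galore 0.4.3, Bowtie2 2.3.2 and HISAT2 2.0.5, and quantification was in SeqMonk. The authors deposited ChIP values as a signal in tiles of 2000 bp every 1000 bp, corrected for the mapped reads and not for input, and RNA as log2 RPKM. They left out 1 Δ/D329A RNA library of low quality. A gene without a read was deposited at 0.9 reads.

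Whole reads were recovered in 100% of ChIP values (within 0.01 reads) and in all 25965 genes (within 0.02 reads, 3 of them with a relative tolerance). A start was the Start or, on the minus strand, the End of the table. Limma 3.58.1 (R 4.3.3; mean-variance trend) was fitted over all features, two-sided, with Benjamini-Hochberg adjustment, on deposited log2 RPKM and on log2 of RPM plus 0.1. EdgeR 4.0.16 and DESeq2 1.42.0 were run on recovered reads. Descriptions were made in Python 3.11.15. The domains, the lists and the rule for named genes were chosen with earlier results of these data known. The genes named are those of the 10 widest domains, those of highest and lowest RNA, of smallest limma p, of listed sets, next to the limits of the rule and of extreme H3K4me3 ratio. Mn1, Rgmb, Nrp2 and Zfp516, genes called by another tool, microRNAs and transfer RNAs were added after their values or places were seen. Replicates are single animals. Same-numbered animals were not paired (correlations of deviations between −0.05 and 0.14). The limma fits, and edgeR for RNA, were first tested on simulated data with known changes. There limma missed most changes over gene bodies. DESeq2, and edgeR on ChIP reads, were not tested in this way. Alternatives covered the scaling, filters, pseudocount, tool, limits of the rule, the replicate block and each library left out.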

Additional observations from a re-analysis of the deposited data

Results flagged for a closer look

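In 62 groups of 4 or 5 libraries checked, 1 library lay far from the others in 6, where chance gives about 3.1. Erbb2ip had 4.22 log2 RPKM in 1 +/+ library against 3.74 to 3.83 in the other 4, and 3.03 in 1 Δ/D329A library against 3.42 to 3.49. Egr1 had 2.86 in 1 Δ/D329A library against 2.50 to 2.55. Prnd had −4.16 in 1 +/+ library against −3.06 to −2.76, at 3 to 9 reads. Gm16170 had −4.11 in 1 +/+ library, from 4 reads. The median RNA of the domain genes was 2.31 in 1 Δ/D329A library, below the other 3.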

How the results depend on the processing

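The number of domain genes called in RNA was 1 by limma. It was 2 under median centring and under quantile normalization (Gabra2 and Sqle), 3 by edgeR, 22 by DESeq2, 0 with the replicate block and 0 when the Start column was used for both strands, which assigns other genes. Over all genes the calls were 19 by limma, 77 by edgeR and 251 by DESeq2. Leaving out each library gave 0 to 1. Gabra2 was not called with the block, without +/+ animal 3 or without Δ/D329A animals 1, 2 or 4. Without Δ/D329A animal 1 the 1 gene called was C030047K22Rik, at 0 to 5 reads. The median RNA difference of domain genes was 0.05 and ranged from −0.03 to 0.15 when a library was left out. Over 17 alternatives Gabra2 was past the threshold in 12 and stayed between −1.31 and −1.11 (adjusted p between 1.7e-18 and 0.017). H3K36me3 calls went from 0 to 5 over gene bodies and from 0 to 1 over the domains by edgeR, which was added after seeing the data (0 to 139 over all bodies), and were 0 by limma when any library was left out and with the replicate block. Median centring brought the lower bodies from 78.3% to 70.2%. The number of genes in domains was 2643 with 4 tiles, 392 with 6 tiles and 549 with the Start column, against 928, and 880 to 958 when a +/+ animal was left out. The median log2 ratio of H3K4me3 ranged from −0.24 to 0.06 when a library was left out. It was −0.44 within the libraries of lower mitochondrial coverage, where Δ/D329A animal 1 was the only Δ/D329A library. The median RNA in +/+ ranged from 2.40 to 2.55 without 1 library. Input gave 0 calls in every alternative run. The cause of these shifts was not tested. With 3 animals a group, a count of 0 calls for H3K36me3 or input does not show that the genotypes were alike.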

Other observations

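The spread of RNA between animals had a lower median in domain genes than in genes of narrow runs of like level. Among genes with a +/+ mean from 2 to 3 log2 RPKM, the SD over the 5 +/+ animals had a median of 0.301 in 235 domain genes, 0.349 in 2201 genes of narrow runs and 0.345 in 177 genes of narrow runs with H3K27me3. From 4 to 6 log2 RPKM it was 0.324 in 131 domain genes and 0.400 in 781 genes of narrow runs. In Δ/D329A the medians at these levels were 0.163 against 0.186, and 0.175 against 0.199. From 0 to 2 log2 RPKM they were 0.317 and 0.350 in +/+, and from 3 to 4 they were 0.310 and 0.356. Genes that start in no run were at 0.322 from 3 to 4 log2 RPKM in +/+, closer to the domain genes. At the other levels they were at 0.389 (0 to 2), 0.336 (2 to 3) and 0.363 (4 to 6). These are descriptions across genes, and depth and gene length, which also differ between the classes, were not set equal.

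Repeats took up a median of 14.3% of the bases of a domain and 17.3% of a narrow run. Protein-coding genes were 89.2% of the domain genes matched in GENCODE and 94.1% of those of narrow runs.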
